A study of Mus musculus with 6 samples.

Results

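miR-221 and miR-222 are 2 microRNAs (miRNAs), short RNAs that repress messenger RNAs. They were taken as the rows named mmu-miR-221 and mmu-miR-222 in the deposited left ventricle table, 2 of its 698 miRNA rows. The table covers 6 mice aged more than 50 weeks. There are 3 wild-type (WT) animals and 3 HCM mutant animals of genotype aMHC403/+, which carry the R403Q change in 1 copy of Myh6, the gene of the alpha-myosin heavy chain. HCM is taken here as hypertrophic cardiomyopathy, a disease of thickened heart muscle. The question is whether either miRNA differs in level between mutant and WT ventricles of this age. The sex of the animals is not given in the sources used here, and both miRNAs are X-linked.

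The 2 miRNAs are made from neighbouring hairpins, and such clustered hairpins are usually cut from a common primary transcript. An miRNA finds its targets mainly through its seed, bases 2 to 8 from its 5′ end, so miRNAs with the same seed can bind overlapping sets of messenger RNAs. Well-studied targets of this pair are Kit, the receptor of stem cell factor, and Cdkn1b, an inhibitor of the cell cycle. In vessels, miR-221 and miR-222 are known for restraining growth of human endothelial cells and for promoting growth of rat smooth muscle cells. In the heart, miR-221 has been reported up in hypertrophy of human and mouse hearts, and miR-222 in the growth response of the mouse heart to exercise.

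The mature sequences show the shared seed, in capitals, and the different remainder. They are from RefSeq on mouse build GRCm38.p6, 5′ to 3′, and miR-1928 is shown because it is the third mature mouse miRNA there with this seed.
mmu-miR-221-3p: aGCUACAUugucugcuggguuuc
mmu-miR-222-3p: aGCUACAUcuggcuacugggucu
mmu-miR-1928: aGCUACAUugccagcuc
miR-221 and miR-222 were identical over their first 8 bases, and at 11 of their first 21 bases in all when laid side by side without gaps. The table lists miR-221 with the same 23 bases as RefSeq and miR-222 with 21 bases, which leaves out the 2 last bases of the RefSeq form. miR-1928 had 0 reads in all 6 libraries, which allows up to 0.574 reads per 1000000 miRNA reads (RPM) at the greatest depth and 1.21 RPM at the lowest. All reads of this seed in the table therefore belonged to miR-221 or miR-222.

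The hairpins, with the mature sequence of the table in capitals, place both measured arms on the 3′ side.
Mir221: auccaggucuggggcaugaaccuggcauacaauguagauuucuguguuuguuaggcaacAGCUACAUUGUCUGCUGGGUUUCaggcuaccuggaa
Mir222: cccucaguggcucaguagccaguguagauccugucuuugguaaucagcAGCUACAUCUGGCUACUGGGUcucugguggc
The Mir221 hairpin lies at chrX:19146294-19146388 and the Mir222 hairpin at chrX:19146893-19146971, both on the minus strand, with 504 bases between them. The mature sequences of the table lie at chrX:19146307-19146329 for miR-221 and chrX:19146903-19146923 for miR-222. In GENCODE M21 (GRCm38) each hairpin is annotated as a gene of its own with a single exon, and no other annotated gene overlaps either. The nearest other gene within 50 kb of the cluster is the noncoding Gm14636, on the same strand at chrX:19156981-19167241. The other arms of the 2 hairpins were not analysed here.

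The libraries held 2483486 to 5223636 miRNA reads, and 193 miRNAs that averaged 10 RPM or more were tested, both members among them. The tissue label was checked against marker lists. The cardiomyocyte list (miR-1, miR-133a and myosin-hosted miRNAs among them) summed to 425040 to 503989 RPM in WT and 400921 to 463232 RPM in the mutants. The list of liver, neuron and epithelium miRNAs summed to 52.4 to 68.7 RPM in WT and 59.9 to 63.2 RPM in the mutants, with 3 of its 15 rows, the minor arms miR-124*, miR-200b* and miR-200c*, at 0 in all libraries. In whole ventricle, fewer cells of a type and less RNA per cell cannot be told apart.

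In the mutant ventricle neither miR-221 nor miR-222 passed the test against WT. The mean level of miR-221 was 90.6 ± 32.4 RPM in WT (SD, n = 3) against 106.9 ± 13.5 RPM in mutants (SD, n = 3). That of miR-222 was 12.3 ± 2.61 RPM in WT (SD, n = 3) against 17.1 ± 7.14 RPM in mutants (SD, n = 3). Thus 0 of 2 members were called, where 5.18% of all tested miRNAs were called (limma, Benjamini-Hochberg adjusted p under 0.05), all of them as higher. Neither member reached an unadjusted p under 0.05 with limma, edgeR or DESeq2 on all 6 libraries.

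miR-221 was a miRNA of middling level in this tissue. It stood at 57.3, 122.1 and 92.5 RPM in WT replicates 1, 2 and 3, and at 101.5, 122.3 and 97.0 RPM in HCM mutant replicates 1, 2 and 3. The groups overlapped: WT replicate 2 and HCM mutant replicate 2 were nearly level at the top, and WT replicate 1 was alone at the bottom. Its mean over the 6 libraries, 98.8 RPM, was the 108th highest of the 193 tested. These values rest on 209 to 508 reads per library. The 95% exact Poisson interval of WT replicate 1, 49.8 to 65.6 RPM, overlapped that of no other library, the nearest being WT replicate 3 at 84.4 to 101.1 RPM. From there upward, each library's interval overlapped that of the next in the order WT replicate 3, HCM mutant replicate 3, HCM mutant replicate 1, WT replicate 2 and HCM mutant replicate 2. Without molecular identifiers, these intervals describe the counting of reads and no other error.

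miR-222 was far less abundant. It stood at 10.7, 15.3 and 10.9 RPM in WT replicates 1, 2 and 3, and at 25.3, 13.0 and 12.9 RPM in HCM mutant replicates 1, 2 and 3. HCM mutant replicate 1 was alone at the top, and the other mutants lay within the range of the WT libraries. Its mean of 14.7 RPM was the 177th highest of 193, close to the filter of 10 RPM. It rests on 32 to 108 reads per library, the fewest in the shallowest library, HCM mutant replicate 3. The 95% exact Poisson interval of HCM mutant replicate 1, 20.8 to 30.6 RPM, lay above those of all other libraries, the nearest being WT replicate 2 at 11.6 to 19.9 RPM. The intervals of the other 5 libraries overlapped one another.

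**Figure D1:**
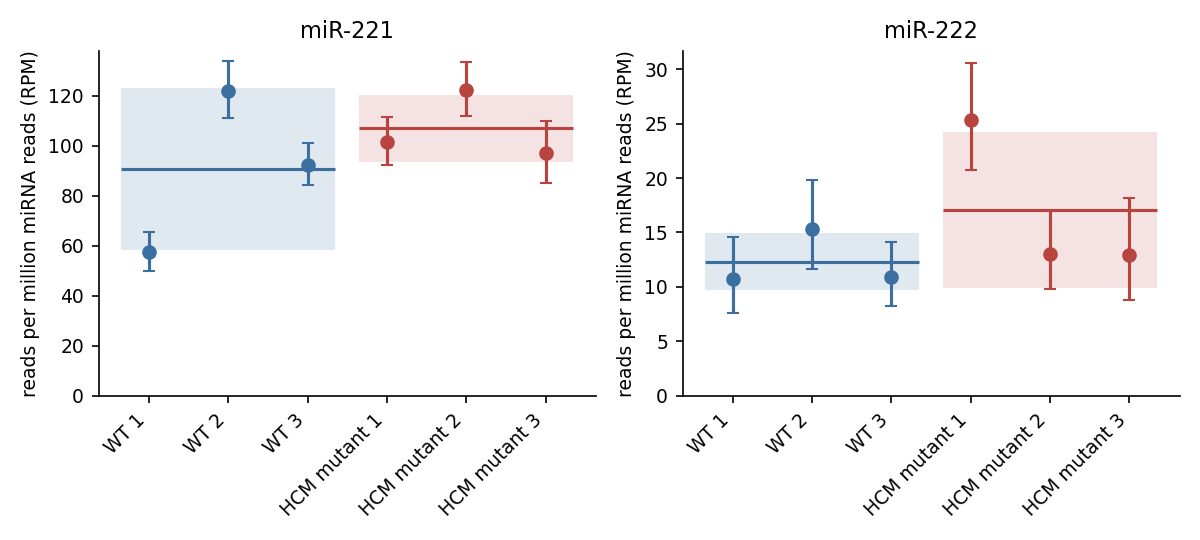
Level of miR-221 (left) and miR-222 (right) in each library, in reads per 1000000 miRNA reads, with 95% exact Poisson intervals; lines and bands give each group's mean ± SD (n = 3). For miR-221 WT replicate 1 sits lowest at 57.3 RPM, and for miR-222 HCM mutant replicate 1 sits highest at 25.3 RPM.

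As estimated from 3 libraries per group, the spread between libraries was wider than the mean counting error for both miRNAs. For miR-221 the coefficient of variation was 35.8% in WT and 12.6% in the mutant, against a mean counting error of 5.39% and 5.23%. For miR-222 it was 21.2% in WT and 41.8% in the mutant, against 14.2% and 13.6%. The Poisson intervals of its WT libraries overlapped, and in the mutants only that of replicate 1 stood apart. On the log2(RPM + 1) scale the within-group SD was 0.40 for miR-221 and 0.42 for miR-222, the 31st and 27th widest of the 193 tested, whose median was 0.25. Among its 20 nearest neighbours in abundance, all 20 had a narrower spread than miR-221. For miR-222, 15 of 20 neighbours did.

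On that scale the level of miR-221 in the mutant differed from WT by 0.295 ± 0.26 (SE), with a 95% interval of −0.23 to 0.82 and a limma adjusted p of 0.521. As a ratio of RPM + 1, the interval runs from 0.853 to 1.77. A mutant library lay above a WT library in 7 of the 9 pairings for each miRNA. For miR-222 the difference was 0.39 ± 0.28 (SE), with a 95% interval of −0.18 to 0.96 and a limma adjusted p of 0.441, or a ratio of 0.880 to 1.95. Rises short of 2-fold, no change and small falls lie within both intervals. A 2-fold rise, a log2 difference of 1, lay within the interval of miR-222 with no filter (upper limit 1.07) and without any one of WT replicate 2, WT replicate 3, HCM mutant replicate 2 and HCM mutant replicate 3 (upper limits 1.05 to 1.21). For miR-221 it did so without WT replicate 2 (1.07). The log2 scale with 1 RPM added understates the change of miR-222 more than that of miR-221.

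Each difference depended on a different library. Without WT replicate 1 the log2 difference of miR-221 was 0.0019 (limma adjusted p = 0.999), and without WT replicate 2 it was 0.54 (limma adjusted p = 0.149, the lowest over its 18 alternatives, whose highest was 0.999). Without HCM mutant replicate 2 it was 0.20 (limma adjusted p = 0.797). Without HCM mutant replicate 1 the difference of miR-222 was 0.08 (limma adjusted p = 0.884; 0.238 to 0.884 over its 18 alternatives). It was 0.55 without WT replicate 2, 0.54 without HCM mutant replicate 2 and 0.55 without HCM mutant replicate 3. Other miRNAs shared these extremes. WT replicate 1 held the lowest level of the 6 for 70 of the 193 tested miRNAs and WT replicate 3 for 65. HCM mutant replicate 1 held the highest level for 43, WT replicate 2 for 42 and HCM mutant replicate 3 for 60.

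The log2 differences of all tested miRNAs lay mostly above 0, 71.0% of them, with a median of 0.15. Relative to that median, miR-221 differed by 0.14 and miR-222 by 0.24. Median-of-ratios scaling moved the median to −0.02, TMM scaling to 0.05 and totals without the 5 most abundant miRNAs to 0.02. Under these scalings the difference of miR-221 was 0.11, 0.19 and 0.16, and that of miR-222 was 0.22, 0.29 and 0.27. With median-of-ratios scaling miR-221 stood at 65.9, 112.0 and 106.0 in the WT libraries and 94.8, 116.3 and 90.2 in the mutants, in scaled RPM. miR-222 then stood at 12.3, 14.1 and 12.5 in WT against 23.7, 12.4 and 12.0 in the mutants. After this scaling WT replicate 1 was still the lowest for miR-221 and HCM mutant replicate 1 still the highest for miR-222. Across all tested miRNAs the groups did not overlap for 20.7%, and neither member was among these.

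**Figure D2:**
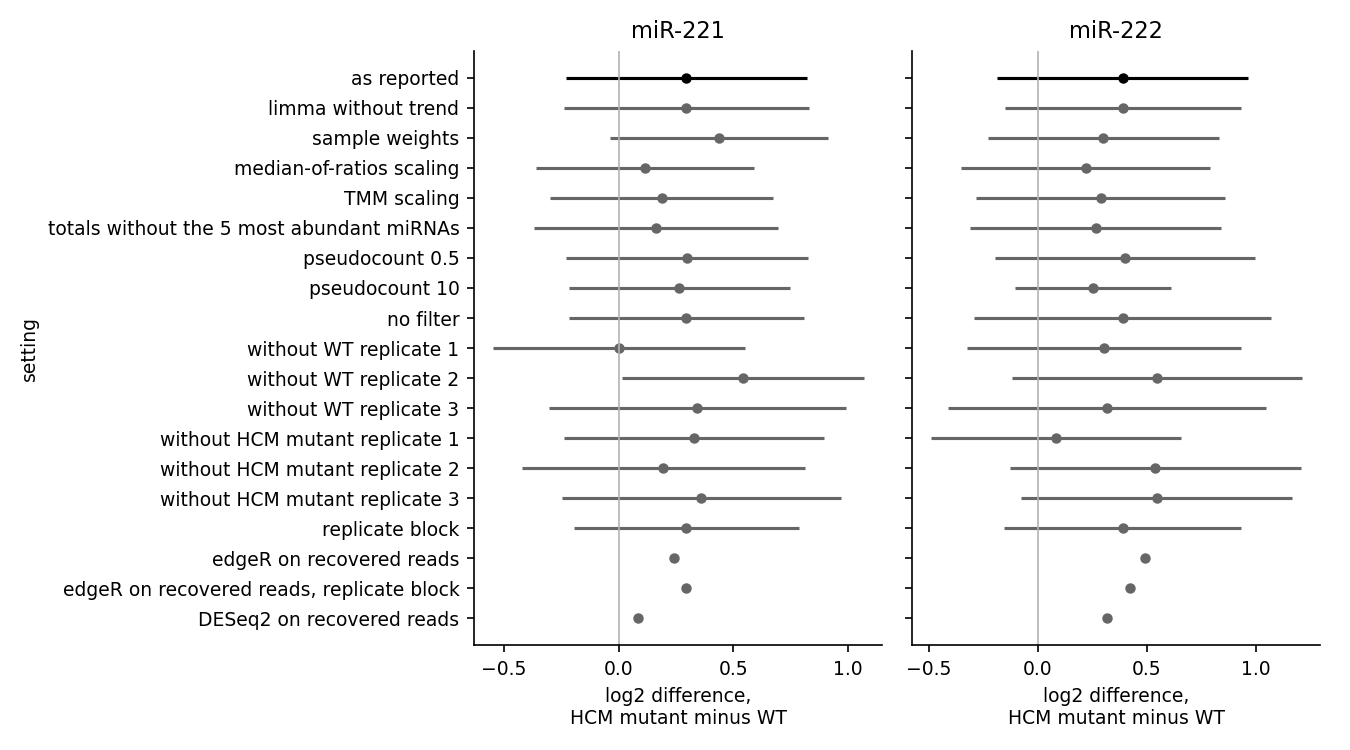
Log2 difference, HCM mutant minus WT, of miR-221 (left) and miR-222 (right) as reported and under 18 other settings; lines are 95% limma intervals, which were not computed for edgeR and DESeq2. All points lie at or above 0, the lowest at 0.0019 for miR-221 without WT replicate 1, and 1 interval, that of miR-221 without WT replicate 2, lies wholly above 0.

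The summed level of the pair and the balance between its members were also compared by library. miR-221 and miR-222 together stood at 68.0, 137.4 and 103.4 RPM in WT replicates 1 to 3 and at 126.8, 135.3 and 109.9 RPM in the mutants. Within a library miR-221 exceeded miR-222 by 5.36, 7.96 and 8.47 times in WT against 4.01, 9.41 and 7.53 times in the mutants. miR-221 was thus the major product in every library, and the groups overlapped for this ratio. Put as a share, miR-222 made up 11.2% of the pair's reads in WT replicate 2 (95% Wilson interval 8.71% to 14.2%) and 9.61% in HCM mutant replicate 2 (7.44% to 12.3%). It made up 19.96% in HCM mutant replicate 1 (16.8% to 23.5%) and 15.7% in WT replicate 1 (11.7% to 20.8%), the library lowest in miR-221. In WT replicate 3 and HCM mutant replicate 3 it made up 10.6% and 11.7%.

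With 1 RPM added to each level, the log2 ratio of miR-222 to miR-221 was −2.73 ± 0.36 (SD, n = 3) in WT and −2.64 ± 0.61 (SD, n = 3) in the mutant. The 2 groups differed by 0.09, less than the SD within either group. A two-sided exact permutation test gave p = 0.8, but at 3 against 3 it cannot go below 0.1 and so could call no difference at 0.05. The difference turned to −0.24 without HCM mutant replicate 1, to −0.02 without WT replicate 3 and to −0.01 with 10 RPM added. The within-group SD of the ratio, 0.50, was wider than its counting SD of 0.16 to 0.27 per library.

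**Figure D3:**
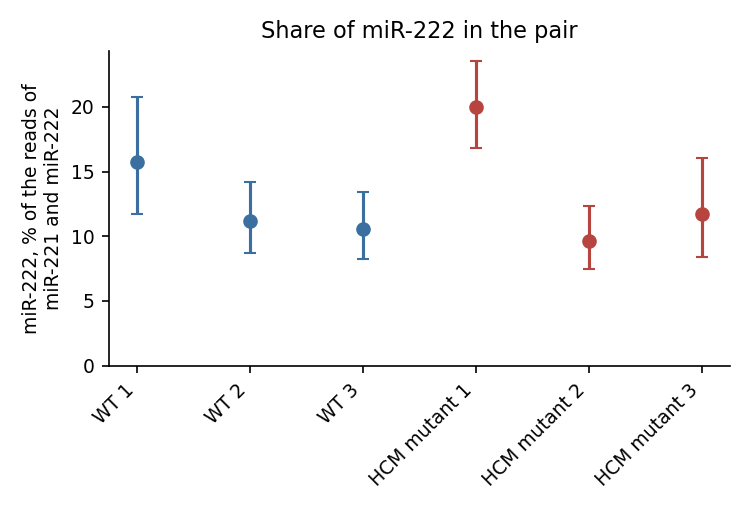
miR-222 as a percentage of the reads of miR-221 and miR-222 in each library, with 95% Wilson intervals. The share was 9.61% in HCM mutant replicate 2, the lowest, and 19.96% in HCM mutant replicate 1, the highest.

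How steady the pair's balance was can be set beside other clustered miRNAs. Neighbouring precursors within 10000 bases on the same strand gave 24 pairs of tested miRNAs that each match a single locus, some of which share a member. By within-group SD of the log2 ratio, miR-221 and miR-222 were the 3rd least steady of the 24, where the median was 0.31. The less steady pairs were miR-27b with miR-24-1* (0.91) and miR-24-2* with miR-27a (0.64). The steadiest were miR-381 with miR-487b (0.15) and miR-532-5p with miR-188-5p (0.16), the latter also on the X chromosome. The level of miR-221 exceeded that of miR-222 by 6.44 times on average, the 10th widest gap, with a median of 5.02 times. Pairs with a less abundant member carry more counting error, and this order was not corrected for it.

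**Figure D4:**
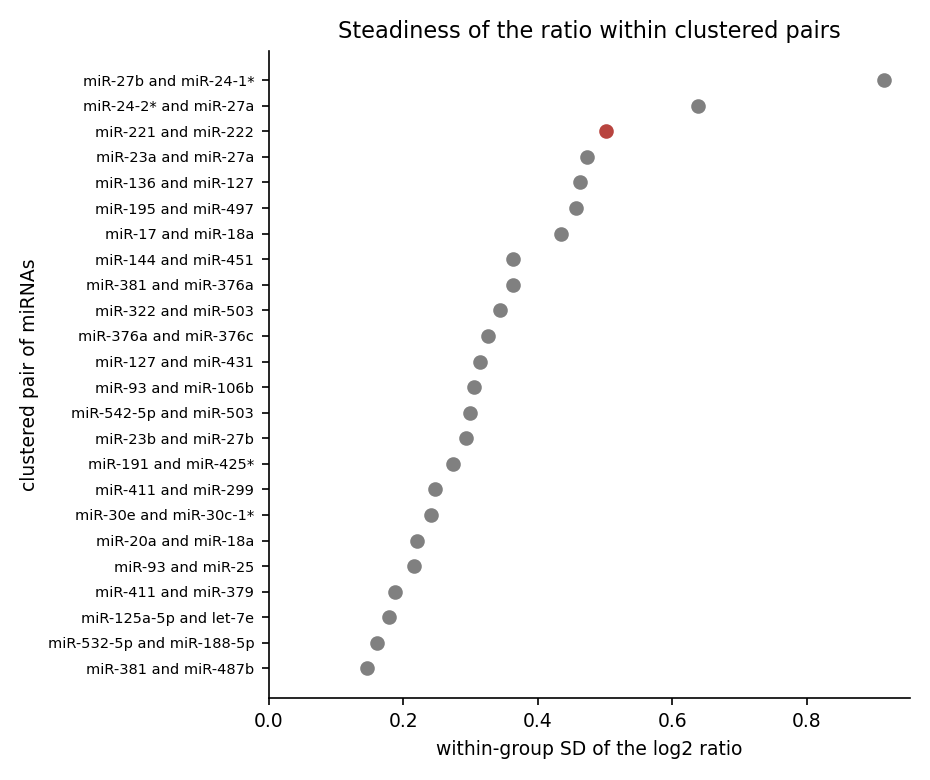
Within-group SD of the log2 ratio over 6 libraries for 24 pairs of neighbouring miRNAs, with miR-221 and miR-222 in red. The pair sits 3rd from the top at 0.50, above the median of 0.31.

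The miRNAs nearest in profile to each member are given as a description. They were picked from these same 6 libraries, so an extreme library shared with the member follows largely from the choice. Likeness was the root mean square difference of log2(RPM + 1) over the 6 libraries after each miRNA was centred on its own mean. The nearest of 192 to miR-221 was miR-34a (0.15), a miRNA known as a target of p53, at 109.7, 185.2 and 132.7 RPM in WT against 154.6, 168.3 and 137.7 RPM in the mutants. miR-93 (0.16) and miR-7a (0.16) came next. All 3 were lowest in WT replicate 1, as miR-221 was, and none passed the test between genotypes (limma adjusted p of 0.807, 0.806 and 0.696).

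The nearest to miR-222 was miR-574-3p (0.15), at 26.6, 44.4 and 26.2 RPM in WT against 52.5, 36.3 and 35.4 RPM in the mutants. Then came miR-18a (0.17), a member of the miR-17-92 cluster, and miR-132 (0.20), a miRNA known for driving hypertrophy of heart muscle cells in mice. All 3 were highest in HCM mutant replicate 1, and none passed (limma adjusted p of 0.441, 0.233 and 0.180). In miR-132 the mutants lay at 298.0, 218.6 and 223.9 RPM and the WT libraries at 133.5, 218.6 and 164.3 RPM. By the same measure miR-222 came 135th of 192 in likeness to miR-221, and miR-221 came 102nd of 192 in likeness to miR-222. Their own difference was 0.41, against a median of 0.36 for miR-221 and 0.40 for miR-222 over all others. Counting error enters these distances, at 9.62% to 17.7% per library for miR-222 and 4.44% to 6.92% for miR-221. The order of likeness was not corrected for it.

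**Figure D5:**
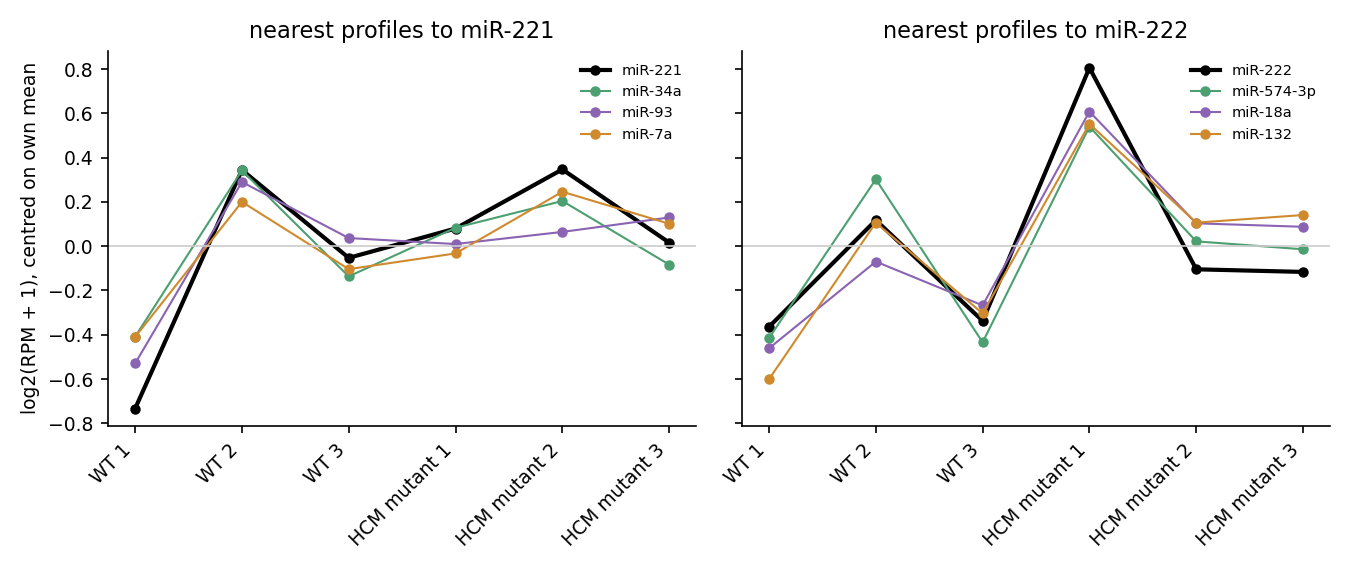
Level on the log2(RPM + 1) scale, centred on each miRNA's own mean over 6 libraries, for miR-221 (left) and miR-222 (right, black) with the 3 nearest profiles of each. The miR-221 group dips in WT replicate 1, and the miR-222 group peaks in HCM mutant replicate 1.

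Levels of the pair were also set against abundant miRNAs of the cell types in which it is best studied. Per 1000 reads of miR-126-3p, an endothelial miRNA, miR-221 stood at 2.99, 4.70 and 5.39 in WT against 4.01, 5.99 and 4.32 in the mutants. miR-222 stood at 0.558, 0.590 and 0.637 in WT against 1.001, 0.637 and 0.574 in the mutants per 1000 reads of miR-126-3p. The groups overlapped in both. Per 1000 reads of miR-143, a smooth muscle miRNA, miR-221 stood at 2.47, 4.58 and 2.82 in WT against 3.71, 4.23 and 2.85 in the mutants, again with overlap. With that reference miR-222 stood at 0.461, 0.575 and 0.332 in WT against 0.925, 0.450 and 0.378 in the mutants, which overlapped too.

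With miR-145, the clustered partner of miR-143, as reference, miR-222 stood at 12.7, 16.0 and 14.0 in WT against 27.5, 23.1 and 19.9 in the mutants, so that the groups did not overlap. miR-221 stood at 67.9, 127.2 and 118.2 against 110.2, 217.6 and 149.6 with the same reference, and there the groups overlapped. miR-145 itself averaged 862 ± 90.2 RPM in WT (SD, n = 3) against 710.6 ± 187.3 RPM in mutants (SD, n = 3) and did not pass (limma adjusted p = 0.441). Per 1000 reads of miR-21, a miRNA abundant in cardiac fibroblasts, miR-221 stood at 52.1, 55.3 and 45.4 in WT against 37.7, 22.2 and 14.9 in the mutants. All mutants lay below all WT libraries in this ratio. miR-222 stood at 9.73, 6.95 and 5.36 in WT against 9.41, 2.36 and 1.97 in the mutants per 1000 reads of miR-21, with overlap. miR-21 itself rose in the mutant, with a log2 difference of 1.43 ± 0.26 (SE, limma adjusted p = 2.09e-04). These ratios are given as a description, with no test. In RPM, without a reference, the groups did not overlap for 20.7% of all tested miRNAs. Such a share was not computed for ratios.

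The lists to which the pair is nearest differed in how many members were called. Of 15 tested miRNAs listed as raised in hypertrophy of the heart, 6 were higher and 0 lower (limma). Of all tested miRNAs, 5.18% were higher and 0.00% lower. The list's median log2 difference was 0.60 against 0.15 for all tested. The 6 were miR-21, miR-21*, miR-214, miR-199a-5p, miR-125b-3p and miR-208b. The tested arms miR-24-1* and miR-24-2* were not counted in the list. They differed by −0.07 and 0.11 (limma adjusted p of 0.879 and 0.807). In the fibroblast list 4 of 6 were higher, all of them also in the hypertrophy list, and its summed level was 1649 to 3092 RPM in WT and 3991 to 8601 RPM in the mutant. Without WT replicate 3, 1 miRNA, miR-21*, was higher in either list, and 4 of the hypertrophy list were without WT replicate 1 or without HCM mutant replicate 3. miR-208b had an adjusted p of up to 0.388 with 1 library left out (limma). miR-221, also reported up in hypertrophy, and miR-222 were not among the miRNAs called.

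Among vascular miRNAs, 0 of 10 endothelial rows passed with limma, edgeR or DESeq2, with 4 higher at an unadjusted limma p under 0.05 and a median of 0.40. Of all tested miRNAs, 5.18% passed with limma, and 19.7% were higher and 2.07% lower at that unadjusted p. The 4 endothelial rows were miR-23b, miR-27a, miR-27a* and miR-27b. By contrast, miR-126-3p differed by 0.15, miR-126-5p by 0.06 and miR-130a by −0.13. miR-23a, miR-24 and miR-27b count in the hypertrophy list too, and miR-24-1* and miR-24-2* were not counted in either list. The endothelial list summed to 64192 to 89091 RPM in WT and 83168 to 91916 RPM in the mutant. Of the smooth muscle rows, 0 of 2 passed with any of the 3 tools or at an unadjusted limma p under 0.05. Of the 193 tested miRNAs, 160 matched a hairpin, and only those could be placed on a chromosome. Of the other 16 tested miRNAs that match chromosome X only, 0 passed with limma, edgeR or DESeq2, and 8 were higher at an unadjusted limma p under 0.05. Of these 16, 14 had differences above 0, against 71.0% of all tested, with a median of 0.42. The most abundant of these was miR-322, with 5144 ± 1298 RPM in WT (SD, n = 3) against 7591 ± 369.6 RPM in mutants (SD, n = 3, limma adjusted p = 0.0683). Leaving out WT replicate 2 gave 5 X-linked rows and 1 endothelial row called higher, where 22 of all 193 tested were called higher. Leaving out HCM mutant replicate 1 gave 2 and 4, where 21 of all 193 were called higher. miR-361 averaged 385 ± 63.2 RPM in WT against 430 ± 56.9 RPM in mutants (SD, n = 3, limma adjusted p = 0.724).

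Over all tested miRNAs, limma called 5.18% higher and 0.00% lower. In the leukocyte list 1 of 6 was higher, miR-142-3p (1065 ± 121.6 RPM in WT, 1728 ± 136.9 RPM in the mutant, SD, n = 3, limma adjusted p = 0.0333). It was not called without any one of WT replicate 1, WT replicate 3 and HCM mutant replicate 3 (limma adjusted p of up to 0.298). The list's sum was 1386 to 1813 RPM in WT and 2159 to 2431 RPM in the mutant, and miR-142-3p made up most of it. Of its 6 tested members, 4 had differences above 0, against 71.0% of all tested, with a median of 0.47. miR-150 (−0.48, limma adjusted p = 0.292) and miR-155 (−0.16, limma adjusted p = 0.793) lay below 0. In the cardiomyocyte list 1 of 5 was higher, miR-208b, and the median was −0.14, with 2 of 5 differences above 0. At an unadjusted limma p under 0.05, 2 of its members were lower, miR-499 (−0.55, limma adjusted p = 0.0559) and miR-1 (−0.30, limma adjusted p = 0.209). Of all tested miRNAs, 2.07% were lower at that unadjusted p. Of the erythroid rows 0 of 3, and of the rows of other tissues 0 of 2, passed with limma, edgeR or DESeq2 or at an unadjusted limma p under 0.05. Without HCM mutant replicate 1, 3 leukocyte rows and 1 cardiomyocyte row were higher, and 1 cardiomyocyte row and 1 erythroid row were lower. Of all 193 tested, 21 were higher and 3 lower in that fit. The part of these cell types in the levels of miR-221 and miR-222 was not tested.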

How the data were processed

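Per the labels' protocols, total RNA of the left ventricle was isolated with a miRNA kit, and the libraries were multiplexed. The authors deposited RPM values, normalised per the file headers to a unit worked out here as reads per 1000000 miRNA reads: each column sums to about 1000000, and 100% of values are whole multiples of 1 read within 0.02 reads. No source used here names the aligner, counter or build. Whole reads (2483486 to 5223636 per library, 1 read worth 0.191 to 0.403 RPM) were recovered for intervals, edgeR and DESeq2; edgeR called 11 miRNAs and DESeq2 12, against 10 by limma. Because RPM is a proportion, a fall of abundant miRNAs lifts the others.

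The test was limma 3.58.1 (R 4.3.3, trend, two-sided, no covariates) on log2(RPM + 1), over the 193 miRNAs averaging 10 RPM or more. Adjusted p (Benjamini-Hochberg) under 0.05 was called. Alternatives were other scalings, pseudocounts, filters and thresholds, sample weights, leaving out each library, a replicate block, edgeR 4.0.16 and DESeq2 1.42.0. edgeR used library totals without further scaling. The steps were tested on simulated data with a smaller spread between libraries than either member had. That simulation does not show how large a change in the members would be called. No 2 libraries agreed within sampling noise. The titles call them biological replicates; whether p-values measure more than technical spread rests on that label.

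The members and lists were chosen with earlier results of these data known, and the lists came from general knowledge. Each measured arm counted where its name matched, which left out miR-24-1* and miR-24-2*. Named miRNAs were the members, miRNAs with their seed, the 3 nearest profiles of each, and, of each list, the 2 most abundant tested and those called. Not every one of these is described, and some other list members are named to show their direction. Positions and sequences came from RefSeq (GRCm38.p6) and GENCODE M21. Python 3.11.15, scipy 1.17.1, pandas 2.3.3 and matplotlib 3.10.9 were used.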

Additional observations from a re-analysis of the deposited data

How the results depend on the processing

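miR-221 and miR-222 kept a difference above 0 and did not pass in any of the 18 alternatives that tested them, with log2 differences of 0.0019 to 0.54 and 0.08 to 0.55; a mean of at least 100 RPM removed both. DESeq2 gave 0.08 for miR-221 and 0.32 for miR-222. With the replicate block the differences were 0.295 and 0.39 (limma adjusted p = 0.495 and 0.396), and that of the log2 ratio of miR-222 to miR-221 was 0.09. Same-numbered deviations correlated at 0.51, −0.07 and 0.18, so the numbers were not taken to pair the animals. The ratio's difference turned to −0.010 with 10 RPM added and lay between −0.24 and 0.34 with each library left out. The pair's summed level differed by 21.1 RPM, and by 3.61 to 38.3 RPM with each library left out. Against 10 miRNAs called (10 higher, 0 lower), scaling by TMM gave 7 (6 and 1), by median of ratios 5 (4 and 1), leaving the 5 most abundant miRNAs out of the totals 7 (6 and 1), sample weights 37 (34 and 3), no filter 9 (7 and 2), DESeq2 12 (8 and 4), an adjusted p under 0.1 21 (19 and 2), and the replicate block 17 (16 and 1) with limma and 17 (16 and 1) with edgeR. Leaving out 1 library gave 1 (without WT replicate 3) to 24 (without HCM mutant replicate 1), with 5 without WT replicate 1 and 22 without WT replicate 2. The cause of these shifts was not tested. Depth limits miR-222 most, with 32 reads in the shallowest library.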
